A study of Mus musculus with 7 samples.

Results

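Connexins and pannexins are the membrane proteins that build large pores between muscle cells or between a cell and its surroundings. The genes described here were Gja1, Gja3, Gja4, Gja5, Gjb2, Gjb5, Gjc1, Panx1 and Panx3, taken by gene name from the annotation of the array, which holds 39429 probes under 31829 names. The 9 genes were measured by 10 probes, because Gja5 has 2.

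The samples were cultures of C2C12, an established line of mouse muscle cells that grow as myoblasts and can fuse into multinucleated myotubes. All cultures received exosomes, which are small vesicles shed by cells, for 24 h in serum-free medium. The exosomes came from other C2C12 cells that had been treated with BSA alone (EXO-Post BSA, 4 arrays) or with 0.5 mmol/l palmitate bound to BSA (EXO-Post Palm, 3 arrays), and both kinds were collected 9 h after the treatment had been removed. No array of cells without exosomes was analysed here, so the comparison concerned the origin of the exosomes and not their presence. The labels call the arrays biological replicates and name C2C12 as the source of each, although their cell line field carries a different number on each array. The labels call the cells myoblasts, whereas the paper calls them differentiated myotubes.

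Connexin subunits assemble into a hemichannel in the membrane of a cell, and hemichannels of neighbouring cells dock to form a gap junction through which ions, second messengers and small metabolites pass. Myoblasts use such junctions before and during fusion, and mature muscle fibres lose most of them. Pannexins form single-membrane channels that do not usually dock and are known for releasing ATP, which then acts on purinergic receptors.

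The 5 member genes whose brightest probe was well above background on every array have 6 probes. A stretch of 30 bases of each is shown because the family members are told apart here by these probes alone. Capitals mark the longest run of letters that the whole probe shares with a probe of another of the 20 connexin and pannexin genes compared. That run had 7 bases for Gjc1, 8 for Gja4 and for the Gja5 probe that was bright, 9 for Panx1 and for the other Gja5 probe, and 10 for Gja1, out of probes 60 bases long. Probes were compared with probes and not with whole transcripts, so binding to the RNA of another family gene was not tested. Positions are those of the whole probe in the array annotation, on mouse build mm9.
Gja1 (chr10:56109814-56109873, plus strand, bases 1 to 30 of the probe): cTACACATTAActcagaacttgtattctga
Gja4 (chr4:126988848-126988907, minus strand, bases 1 to 30): acccagcgcCAAGTTGActttcgagcctcc
Gja5 (chr3:96857349-96857408, plus strand, bases 31 to 60): gctatggagtgtgtgTTTGTTTTctgaaat
Gja5, other probe (chr3:96836339-96836395, plus strand, bases 10 to 39): gtgggcagttgAACAGCAGCcagagcctga
Gjc1 (chr11:102661010-102661069, minus strand, bases 1 to 30): gtTGTGTCTtccagatccagagaagaactg
Panx1 (chr9:14810250-14810309, minus strand, bases 1 to 30): AGGACCTGGggcttctagagagcaagcaca
The exon or untranslated region that each probe lies in was not given in the sources used here. The 2 probes of Gja5 lie 21.0 kb apart, and the dimmer one spans 57 bases of the genome.

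The 75th percentile of the processed signal, which sets the scale of each array, lay between 549.4 and 1621, and 48.5 to 70.3% of probes were well above background. Values below are log2 of the processed signal minus that percentile, so 0 is the 75th percentile itself. The test took in the 21589 probes that the scanner software called well above background on 75% or more of the arrays in either group. With limma, 115 of them (0.533%) passed a Benjamini-Hochberg adjusted p of 0.05, 100 higher (0.463%) and 15 lower (0.0695%) with EXO-Post Palm. Without normalisation between arrays, which moved the median difference of all tested probes from -0.02 to -0.13, the split was 67 higher and 49 lower. The number of calls rested on single arrays, since it was 0 without EXO-Post BSA 1, 7 without EXO-Post Palm 1 and 202 without EXO-Post Palm 2.

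None of the 6 member probes that were tested passed the threshold, beside a background of 0.533% of all tested probes. At an unadjusted limma p of 0.05, none of the 6 passed either, beside 10.05% of all tested probes. All 6 were fitted higher, with a median difference of 0.17. Over all tested probes 10216 were fitted higher and 11373 lower, with a median of -0.02. Those of Gja3, Gja4, Gja5 and Gjc1 changed sign under at least 1 alternative. The groups overlapped for all 10 member probes, whereas 11.0% of tested probes had groups that did not overlap. The 5 genes Gja1, Gja4, Gja5, Gjc1 and Panx1 were well above background on all 7 arrays, Gja5 by its brighter probe only. Gja3 was so on some arrays, and Gjb2, Gjb5 and Panx3 were so on none.

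**Figure D1:**
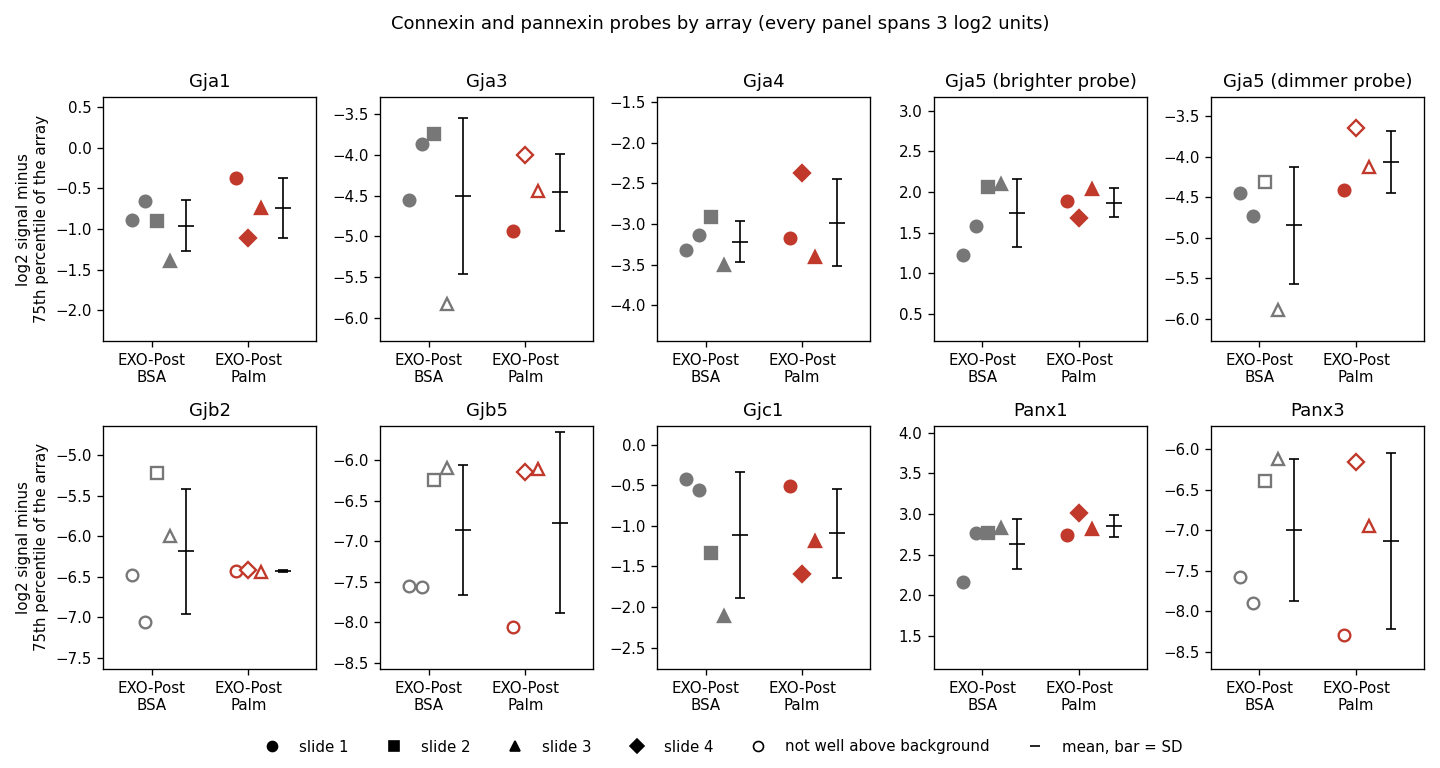
Level of each connexin and pannexin probe on each array, in log2 units relative to the 75th percentile of the array. Grey points are the 4 EXO-Post BSA arrays, red points the 3 EXO-Post Palm arrays, open points were not well above background, shapes give the slide, and the bars give mean and SD. The groups overlap in all 10 panels.

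Gja1 encodes the connexin with the widest expression across tissues and the main gap junction protein of fusing myoblasts. Its level was -0.89, -0.65, -0.90 and -1.39 on EXO-Post BSA arrays 1 to 4, and -0.37, -1.11 and -0.74 on EXO-Post Palm arrays 1 to 3. The highest value belonged to an EXO-Post Palm array and the lowest to an EXO-Post BSA array, and EXO-Post Palm 2 lay below 3 of the 4 EXO-Post BSA arrays. The group means were -0.96 ± 0.31 (SD, n = 4) and -0.74 ± 0.37 (SD, n = 3). The difference was 0.22 with a standard error of 0.26 (limma adjusted p = 0.818), and its 95% interval ran from -0.38 to 0.82, that is, from 0.770 to 1.76 times the EXO-Post BSA level.

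Gja1 was the only member whose probe is printed 10 times on each array, and these spots gave a view of the measurement error within an array. The SD over the spots of an array was between 0.26 and 0.52 on 6 arrays and 1.49 on EXO-Post BSA 4. On that array 1 spot read -5.21 and was not well above background, while the next lowest read -1.96. With that spot the array stood at -1.39, and the median of its 10 spots was -0.98. When spot medians replaced spot means on all arrays, an alternative chosen after this spot had been seen, the Gja1 difference became 0.00. That alternative also took back the spots marked as outliers and changed the other arrays, so it does not isolate the dim spot. Without EXO-Post BSA 4 the Gja1 difference was 0.08, and without EXO-Post Palm 1 it was 0.04. None of these settings brought Gja1 past the threshold.

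**Figure D2:**
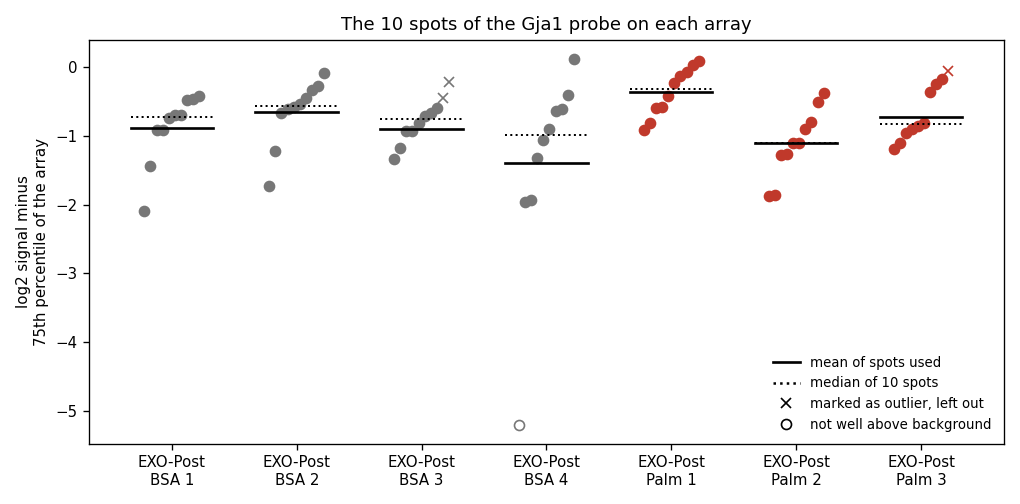
The 10 spots of the Gja1 probe on each of the 7 arrays, in log2 units relative to the 75th percentile of the array. Solid lines are the means used, dotted lines the medians of the 10 spots, crosses the spots that the scanner software marked as outliers, and the open circle the spot at -5.21 on EXO-Post BSA 4, which pulled the mean of that array to -1.39.

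Slides could be compared only in part, since slide 1 held EXO-Post BSA 1, EXO-Post BSA 2 and EXO-Post Palm 1, slide 3 held EXO-Post BSA 4 and EXO-Post Palm 3, and the other arrays were alone on theirs. Within slide 1, Gja1 stood at -0.37 with EXO-Post Palm and at a mean of -0.77 with EXO-Post BSA. Within slide 3 it stood at -0.74 and -1.39. EXO-Post Palm was the higher in both, and with slide as a block the Gja1 difference was 0.51 (limma adjusted p = 0.575). The array that holds the dim spot is the EXO-Post BSA array of slide 3.

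Gjc1 encodes a connexin of the gamma group that is known from the heart's conduction system, smooth muscle and early muscle cells. It measured -0.43, -0.56, -1.34 and -2.11 with EXO-Post BSA and -0.51, -1.59 and -1.18 with EXO-Post Palm. The 3 arrays of slide 1 were the 3 highest, whichever exosomes the cells had received. The means were -1.11 ± 0.78 (SD, n = 4) and -1.09 ± 0.55 (SD, n = 3), and the difference was 0.02 with a standard error of 0.44 (limma adjusted p = 0.996). Its 95% interval, -0.98 to 1.01, admitted changes of about 2.02 times in either direction. Within slide 1 the difference was -0.01 and within slide 3 it was 0.92, so the 2 slides did not give the same picture, and with slide as a block it was 0.39 (limma adjusted p = 0.717).

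Gja4 and Gja5 encode connexins best known from the endothelium of arteries, and Gja5 also from the atria of the heart. Gja4 measured -3.32, -3.13, -2.92 and -3.51 with EXO-Post BSA and -3.17, -2.38 and -3.40 with EXO-Post Palm. It was dim and well above background on all 7 arrays, and EXO-Post Palm 2 alone lay above the range of the EXO-Post BSA arrays. The difference was 0.24 with a standard error of 0.29 (limma adjusted p = 0.823, 95% interval -0.42 to 0.89). Without EXO-Post Palm 2 the sign turned, to -0.07.

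The brighter Gja5 probe measured 1.23, 1.58, 2.06 and 2.10 with EXO-Post BSA and 1.89, 1.68 and 2.04 with EXO-Post Palm. All 3 EXO-Post Palm values fell inside the range of the EXO-Post BSA arrays. The means were 1.74 ± 0.41 (SD, n = 4) and 1.87 ± 0.18 (SD, n = 3), the difference was 0.13 with a standard error of 0.26 (limma adjusted p = 0.905), and the 95% interval ran from -0.48 to 0.73. Without EXO-Post BSA 1, the lowest array, it turned to -0.04.

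The other Gja5 probe did not follow the brighter one. It was well above background on EXO-Post BSA 1, EXO-Post BSA 2 and EXO-Post Palm 1 only, which are the arrays of slide 1, and was not tested. Its values were -4.45, -4.73, -4.32 and -5.89 with EXO-Post BSA and -4.41, -3.65 and -4.13 with EXO-Post Palm. The brighter probe had group means of 1.74 and 1.87, and this one -4.85 and -4.07. Its lowest array, EXO-Post BSA 4, was the highest array of the brighter probe. The files do not say which transcripts of Gja5 each probe reads.

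Markers of endothelial cells were examined because Gja4 and Gja5 are known from that cell type. Cdh5, Tie1 and Emcn, a cadherin, a receptor kinase and a mucin of the endothelium, were well above background on no array, while Pecam1 and Kdr were so on all 7. Of the 5 genes 2 were tested and neither was called. The summed signal of all 5, in multiples of the 75th percentile, was 4.16 to 5.29 with EXO-Post BSA and 3.06 to 6.22 with EXO-Post Palm.

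Panx1 encodes the broadly expressed pannexin, the channel through which muscle cells are known to release ATP. It measured 2.17, 2.76, 2.76 and 2.82 with EXO-Post BSA and 2.74, 3.01 and 2.81 with EXO-Post Palm. The other 6 arrays lay between 2.74 and 3.01, above EXO-Post BSA 1. The means were 2.63 ± 0.31 (SD, n = 4) and 2.85 ± 0.14 (SD, n = 3), and the difference was 0.23 with a standard error of 0.23 (limma adjusted p = 0.780, 95% interval -0.30 to 0.75, or 0.814 to 1.68 times). Without EXO-Post BSA 1 the difference was 0.07. Within slide 1 it was 0.28 and within slide 3 it was -0.01.

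Gja3, which encodes a connexin of the lens, was near the limit of detection. It was well above background on 3 of 4 EXO-Post BSA arrays and on 1 of 3 EXO-Post Palm arrays, so that it entered the test through the EXO-Post BSA arrays alone. The values were -4.55, -3.86, -3.74 and -5.84 with EXO-Post BSA and -4.94, -4.00 and -4.44 with EXO-Post Palm. The lowest and the highest values were both from EXO-Post BSA arrays. The fitted difference was 0.04 with a standard error of 0.50 (limma adjusted p = 0.988). Without EXO-Post BSA 4, the array at -5.84, it was -0.41.

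The other 3 members were called well above background on no array. Gjb2, which encodes a connexin of the cochlea and the skin, read from -7.05 to -5.23. Gjb5, a connexin gene of keratinocytes and placenta, read from -8.06 to -6.10, and Panx3, the pannexin gene known from cartilage, bone and skin, read from -8.30 to -6.13. The median of the negative control spots of an array was between -8.04 and -6.18 on the same scale. Gjb2 was not at that level on every array, since on EXO-Post Palm 1 it read -6.42, above the highest negative control of that array at -7.55, without being called well above background. EXO-Post Palm 1, with the lowest negative controls, had the lowest Gjb5 and Panx3 readings. Of the bone and cartilage markers, Sp7 and Col2a1 were well above background on no array, Ibsp on 1 and Acan on 4 of 7. Of the epithelial markers, Epcam was so on no array, Krt18 on 1, Krt5 and Cdh1 on 4 and Krt14 on all 7.

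An exact permutation test over the 35 ways of parting 7 arrays into 4 and 3 gave, 2-sided, p = 0.43 for Gja1, 0.54 for Gja4, 0.69 for the brighter Gja5 probe, 1.00 for Gjc1, 0.46 for Panx1 and 0.94 for Gja3. The smallest p that this number of arrays allows is 0.0286. In bulk RNA, fewer cells that express a gene and less of its RNA in each cell cannot be told apart. The intervals were wide enough to hold changes of 1.66 to 2.25 times upwards for the 6 probes, and the absence of a call does not show that the levels were equal.

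**Figure D3:**
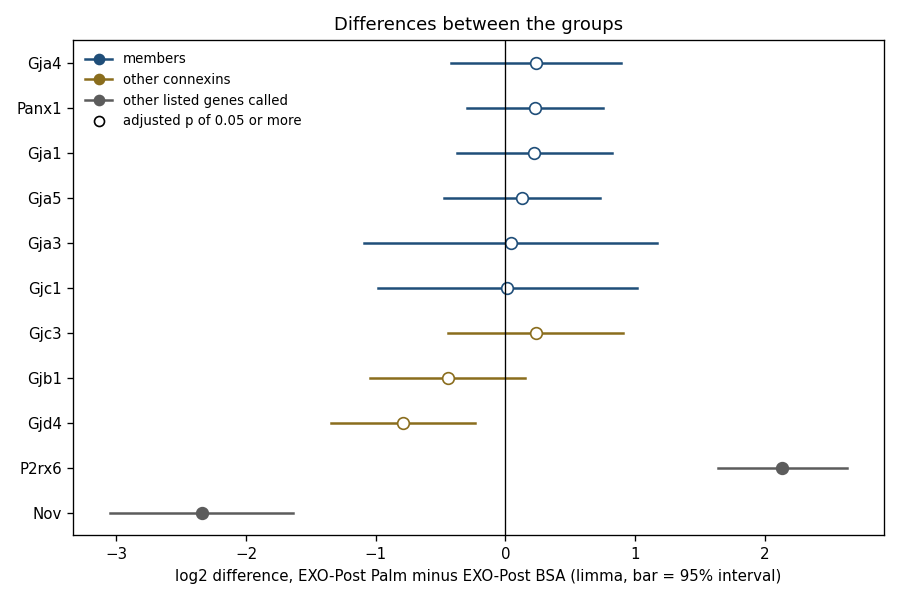
Difference between EXO-Post Palm and EXO-Post BSA on the log2 scale for the 6 tested member probes (blue), 3 other connexin genes (brown) and the called genes of the other lists (grey), with 95% intervals from limma. Filled points passed an adjusted p of 0.05, and none of the blue ones did, while P2rx6 at 2.13 passed, as did Nov at -2.34, whose EXO-Post Palm level was well above background on 1 of 3 arrays. Of the brown points, Gjc3 and Gjd4 were not well above background on all arrays.

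The connexin genes Gjb1, Gjc3 and Gjd4, which are no members, were tested and are given beside the members. Gjb1, which encodes a connexin of liver and of myelinating cells, measured from -1.45 to -0.58 with EXO-Post BSA and from -1.83 to -1.24 with EXO-Post Palm, with overlapping groups. The difference was -0.45 with a standard error of 0.26 (limma adjusted p = 0.618), and it was -0.31 within slide 1 and -0.38 within slide 3. Gjc3 and Gjd4 differed by 0.23 and -0.79 and were well above background on 5 of 7 arrays each, and neither was called (limma adjusted p of 0.830 and 0.304). Each of these 2 entered the test through 1 group only, so the size of its difference is uncertain. Of the 3 genes, 1 had an unadjusted limma p under 0.05, namely Gjd4, beside 10.05% of all tested probes. Since Gjd4 passed the filter through 1 group only, that count is not read as a result. Other genes of the family are not reported here, so these 3 do not describe the family as a whole.

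Gja3 and Gjb2 are neighbours on chromosome 14, with probes 62.9 kb apart, and neither was well above background on all arrays. Gja4 and Gjb5 lie closer, with probes 43.2 kb apart on chromosome 4. Gja4 was well above background on all arrays and Gjb5 on none. Panx1 and Panx3 lie 22.7 Mb apart on chromosome 9, the one well above background on all arrays and the other on none.

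Proteins that anchor, phosphorylate or degrade connexins were followed as a list of 20 genes, of which 19 were tested and 1 was called. The call was Nov, a secreted protein of the CCN family that binds Gja1's product, which measured -3.97, -3.11, -3.55 and -2.70 with EXO-Post BSA and -5.65, -5.51 and -5.88 with EXO-Post Palm. It was well above background on all 4 EXO-Post BSA arrays and on 1 of 3 EXO-Post Palm arrays. It thus entered the test through the EXO-Post BSA arrays, where it was high, and the fitted difference of -2.34 with a standard error of 0.31 (limma adjusted p = 0.019) is set largely by EXO-Post Palm readings that were not well above background, so its size is uncertain. The call was kept without EXO-Post BSA 4 or EXO-Post Palm 2 and lost without any other array (adjusted p of up to 0.092), and with slide as a block its adjusted p was 0.052. With the authors' processed values, in place of the scanner's, Nov differed by -1.34 (adjusted p = 0.070), and with normexp background correction and an offset of 50 by -0.79 (adjusted p = 0.155).

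Among the partners well above background on all arrays, the largest differences were -0.54 for Dbn1, an actin-binding protein that holds connexins at the membrane, -0.50 for the kinase gene Prkca and -0.49 for the kinase gene Csnk1d. None was called (limma adjusted p of 0.363 to 0.601). The groups did not overlap for Dbn1 (exact permutation p = 0.0286), as for 11.0% of tested probes, and overlapped for Prkca and Csnk1d. Of the 19 tested genes of the list, 2 had an unadjusted limma p under 0.05, Nov and Dbn1, beside 10.05% of all tested probes. Nov passed the filter through the EXO-Post BSA arrays alone, so that count is not read as a result. The list's median difference was -0.28, with 6 genes fitted higher and 13 lower, beside a median of -0.02 and 10216 higher and 11373 lower over all tested probes.

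ATP that leaves a cell through pannexin channels acts on purinergic receptors and is broken down by ectoenzymes. In a list of 29 genes of these receptors, enzymes and other large-pore channels, 20 were tested and 1 was called, P2rx6, a subunit of ATP-gated cation channels. It measured -3.41, -3.05, -2.84 and -3.36 with EXO-Post BSA and -1.19, -0.97 and -0.94 with EXO-Post Palm, without overlap and well above background on all 7 arrays. The difference was 2.13 with a standard error of 0.22 (limma adjusted p = 0.011, exact permutation p = 0.0286), or 3.11 to 6.20 times the EXO-Post BSA level. It was 2.05 within slide 1 and 2.42 within slide 3, and the call was lost without EXO-Post BSA 1 (2.05, adjusted p = 0.057) or without EXO-Post Palm 1 (2.21, adjusted p = 0.055).

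The other purinergic genes chosen by size, among those well above background on all arrays, were Nt5e and Entpd2. Nt5e, which makes adenosine from AMP, differed by 0.90 (limma adjusted p = 0.456). Entpd2, which breaks down ATP, differed by -0.82 (limma adjusted p = 0.434). Neither was called. The lowest difference of the list, -1.62, belonged to a gene that was not well above background on all arrays and was not called. The groups overlapped for Nt5e and did not for Entpd2 (exact permutation p = 0.0286), as for 11.0% of tested probes. The list had 5 genes fitted higher and 15 lower and a median of -0.26. Of its 20 tested genes, 6 had an unadjusted limma p under 0.05, in a background of 10.05%, and 17 were well above background on all arrays.

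The cells were checked against markers of their own and other types. All 7 myotube markers, Myog, Ckm, Acta1, Myh3, Mylpf, Tnnt3 and Actn2, were well above background on all arrays and none was called, with a summed signal of 299.9 to 429.0 with EXO-Post BSA and 306.2 to 365.1 with EXO-Post Palm. Of 5 myoblast markers, Myf5 was well above background on no array, and 3 were tested, of which none was called (sums of 4.73 to 8.29 and 3.91 to 11.1). Of 5 markers of proliferating cells, Mki67, Top2a, Ccnb1 and Plk1 were called higher with EXO-Post Palm, with sums of 2.90 to 3.56 against 10.6 to 24.4, so these markers differed between the groups as Nov and P2rx6 did, and their part in those results was not tested. Of the macrophage markers 5 were on the array and 3 were tested, of which none was called. The sums of the 5, 7.17 to 17.6 and 4.90 to 5.74, nevertheless did not overlap and rested mainly on Itgam. The sums were 0.0758 to 0.163 and 0.0839 to 0.127 for 4 bone and cartilage markers and 0.275 to 0.542 and 0.266 to 0.389 for 5 epithelial markers.

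The 5 members whose brightest probe was well above background on all arrays were compared with 17277 probes. For each, the genes with the most similar course over the 7 arrays were sought by Pearson correlation, as a description only. The closest were 1700037C18Rik (0.980) and Mycbp (0.967) for Gja1, Fubp1 (0.994) and Dact3 (0.981) for Gja4, Nme1 (0.995), Zzz3 (0.984) and Gm5879 (0.962) for Gja5, Dkk3 (0.991), Tfg (0.973) and Serpinb6c (0.971) for Gjc1, and Spr (0.997), Pnpt1 (0.987) and Gosr2 (0.985) for Panx1. Genes whose name on the array is only a transcript identifier are left unnamed. With 7 arrays that share slides, high correlations are frequent in so large a search. Counting each other gene name once, by its closest probe, 37 to 186 names reached a correlation above 0.9 with each member. None of the genes named had a called difference. Their choice by likeness to members without a call makes that likely, so it is no separate result.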

How the data were processed

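The arrays were Agilent mouse arrays of 1 colour, for which 0.1 µg of RNA entered the labelling reaction. The authors deposited the scanner output of each array, in which the processed intensity had been corrected for background and spatial trends by the software but not scaled between arrays. The authors also deposited log2 values of their own, with like medians on all arrays, and their rows were joined by order. Log2 of the processed intensity minus the 75th percentile of each array was compared with limma 3.58.1 in R 4.3.3 (lmFit and eBayes, prior degrees of freedom 3.67, 2-sided, Benjamini-Hochberg adjustment over 21589 probes). Control spots and spots marked as outliers were left out, no spot was saturated, and spots of a probe were averaged. Tables and plots used Python 3.11.15, pandas 2.3.3, numpy 2.4.6 and matplotlib 3.10.9. The number of arrays limits the precision.

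The members, the lists and the tests were chosen with earlier results of these data known. Named genes were all members, the called genes of each list, its 3 largest differences among genes well above background on all arrays, and the 3 genes most correlated with a member. A listed gene with several probes was given by its brightest. Some genes that the rule covers are not reported here. The 20 family genes used matched symbols in RefSeq's mouse gene table, and probe sequences are those of the array annotation. Tried were 22 alternatives for background correction, scaling, filter, slide, replicate number, weights, variance, test and left-out arrays, and 1 added later for spot medians. The mean signal is missing for EXO-Post BSA 3, so background alternatives used the median signal on all arrays. The labels name Feature Extraction 9.1, while the file headers name 10.7.3.1 and, for EXO-Post BSA 3, 11.5.1.1. The model was tested on simulated data.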

Additional observations from a re-analysis of the deposited data

Results flagged for a closer look

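For Panx1, EXO-Post BSA 1 at 2.17 stood apart from the other EXO-Post BSA arrays, which lay between 2.76 and 2.82. The gap took up 0.905 of the group's range, above the 95% critical value of Dixon's test for 4 samples. Among 18 groups examined 1 was flagged, and chance flags about 1 in 20. Without this array the Panx1 difference was 0.07 in place of 0.23, and neither was called.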

How the results depend on the processing

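No member passed the threshold under any of the 23 alternatives, and the largest absolute difference was 0.51. The number of called probes, 115 in the analysis reported, was 0 of 39429 without a filter on dim probes (1900 at an unadjusted p of 0.05), 181 with slide as a random block, 180 with array weights, 173 with trended and robust variance, 2108 by the methods' t-test at an unadjusted threshold and 0 after its adjustment. With 1 array left out it ranged from 0 to 202, and under the other alternatives, the block on replicate number apart, from 109 to 150. Replicate numbers are not said to pair the samples. Deviations of same-numbered arrays correlated at 0.12, -0.15 and -0.15, which with so few arrays cannot show whether they pair. With a block on replicate number, in which EXO-Post BSA 4 has no partner, 0 probes were called (1933 at an unadjusted p of 0.05). The differences of Gja3 and Gjc1 turned negative, without a call, with that block (-0.41 and -0.32), array weights (-0.233 and -0.014), array medians (-0.020 and -0.044) and no normalisation (-0.067 and -0.092). With 1 array left out they ranged from -0.41 to 0.29 for Gja3, -0.32 to 0.26 for Gjc1, -0.068 to 0.445 for Gja4 and -0.044 to 0.244 for Gja5. The cause was not tested. P2rx6 passed under 17 of the 23 alternatives (range 1.55 to 2.24), and Nov under 10 of 22 (-2.56 to -0.69), since the filter on all arrays removes it. Both counts include the methods' t-test at an unadjusted threshold. After Benjamini-Hochberg adjustment of that t-test neither gene passed (adjusted p of 0.149 for P2rx6 and 0.206 for Nov). Probes well above background on no array, as of Gjb2, Gjb5 and Panx3, have no usable difference.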
